A study of Arabidopsis thaliana with 12 samples.

Results

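The 127 Arabidopsis thaliana genes described here had a mean expression in 35S:miR396a seedlings of at most 0.5 times that of wild-type Col-0 seedlings both in the dark and after light. They were selected on these means, with at least 2 FPKM (fragments per kilobase of transcript, scaled to the mapped fragments of a library) in dark and in illuminated Col-0, from 3303 genes that met this Col-0 level and had a mean in all 4 groups, out of 11417 genes in the deposited tables. Of the 9 genes of the miR396 module that were left out by name, 2 met the same limits, GRF2 and AT1G10120 (bHLH74). The 4 groups were 35S:miR396a dark, Col-0 dark, 35S:miR396a light and Col-0 light, with 3 libraries each, labelled as biological replicates and as hypocotyl of the Columbia ecotype. In all groups the seedlings spent 4 days in darkness on a medium with 1% sucrose, and the light groups then received 3 h of light. 35S:miR396a carries miR396a under the 35S promoter of a plant virus, which is active in most plant tissues. The number of transgenic lines sampled is not given in the sources.

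The tables hold one mean FPKM per gene and group and no value of a single library, so no SD, n or test stands beside any value, and whether a difference exceeds the spread between replicates could not be examined. "Listed" means that a gene stands in the authors' deposited table of a comparison, which holds genes beyond 2-fold with a q-value under 0.001. A gene has a mean in all 4 groups only if it was listed in comparisons that together cover these groups. Genes with little difference between groups are therefore missing from the 3303. Shares and spreads over the 3303 do not stand for all expressed genes. Sequencing depth per library is not in these tables. No gene of the marker lists for root, shoot apex, stomatal lineage or seed reserves was among the 127. Among the 3303 were only 1 root and 2 stomatal-lineage markers, and 0 of shoot apex or seed reserves, so this absence carries little information. The vascular markers APL, SUC2, SEOR1, IRX3 and XCP1 were in no table, so the hypocotyl label could not be checked on them. In the authors' deposited tables the seed-reserve markers were listed higher in 35S:miR396a for 6 of 6 in the light (36.1% of the 3303 genes were so listed) and 5 of 6 in the dark (5.27%). These 6 had low means in dark Col-0, from 0.426 to 0.953 FPKM, below the level of the 3303 genes set beside them. Their summed FPKM was 109.3 in 35S:miR396a and 16.2 in Col-0 in the light, and 31.7 in 35S:miR396a and 4.35 in Col-0 in the dark. Of the 4 stomatal-lineage markers all were listed lower in 35S:miR396a in the light, beside 43.1% of the 3303 genes. SPCH was listed higher in the dark, beside 5.27%. The summed FPKM of the 4 was 5.32 in 35S:miR396a and 26.8 in Col-0 in the light. In the dark it was 13.8 in 35S:miR396a and 9.58 in Col-0. Of 7 shoot-apex markers CLV3, CUC1 and CUC2 were listed higher in 35S:miR396a in the dark (5.27%) and CLV3 in the light (36.1%). Of 8 root markers IRT1 was listed higher in the dark (17.4 FPKM in 35S:miR396a and 8.65 in Col-0). In the light IRT1 was at 3.58 in 35S:miR396a and 3.97 in Col-0. WOX5 was listed higher in the light (1.18 in 35S:miR396a and 0.42 in Col-0). The root marker PYK10 had means in 35S:miR396a only, 3007 FPKM in the dark and 6636 in the light. None of the 25 markers of root, shoot apex, stomatal lineage and seed reserves was listed lower in 35S:miR396a in the dark, beside 17.1% of the 3303 genes. Of these markers SHR, PLT1, WUS and KNAT1 were in no table, so the count says nothing of them. No marker with a value was at 0 in any group. The part of tissue composition in the values below was not tested, and fewer cells of a type cannot be told apart from less RNA per cell.

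The microRNA miR396 pairs with messenger RNAs of the GRF family (growth-regulating factors), which switch on genes of cell proliferation in young organs, and lowers their level. A plant that makes more of it usually has smaller leaves. Dark-grown seedlings build etioplasts in place of chloroplasts, and light starts chlorophyll synthesis, thylakoid assembly and carbon fixation while the hypocotyl stops elongating.

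To see which of the 127 resemble known targets in sequence, the transcripts were searched for the complement of the mature miR396a (chr2:4142443-4142463, minus strand, TAIR10.1), shown first with bases 2 to 8, the seed, in capitals. The target stretches of GRF2, GRF3 and bHLH74 stand beside it as the known pattern, and that of FLU is the closest match among the 127. In the target stretches, capitals mark bases in A:U or G:C pairs with the microRNA. Lower case marks G:U pairs (1 in GRF2 and 3 in bHLH74), mismatches and unpaired bases.
miR396a: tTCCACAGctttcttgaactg
GRF2: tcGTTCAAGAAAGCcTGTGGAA
GRF3: CcGTTCAAGAAAGCcTGTGGAA
bHLH74: tgGaaCAAGAAAGCTGTGGAg
FLU: gAGTTCAAGAtAGCTtTGGAA

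Each stretch was scored with 1 per mismatch and 0.5 per G:U pair, doubled at microRNA positions 2 to 13, and 2 for an unpaired base. At a penalty of at most 4 the search found 8 of the 9 genes of the module, all but GRF6, and 17 of 27444 protein-coding genes (0.0619%). None of the 124 genes with an identifier in the reference annotation had such a stretch, nor did any of the 3268 coding genes with at least 2 FPKM in both Col-0 groups, from which the module had been left out by name (GRF2 and bHLH74 meet that level and have a site). The stretch in FLU lay in its coding sequence (chr3:4676480-4676500, minus strand) and had a penalty of 5.0 with 3 mismatches and 18 paired bases. At a penalty of at most 5, a limit added after the data were seen, FLU was the only one of the 124 (0.806%). This stands beside 8 of the 3268 (0.245%) and 83 of all coding genes (0.302%). Both the 83 and the 17 at the lower limit include 8 genes of the module. The sites in GRF2 (chr4:17726404-17726425, minus strand) and GRF3 (chr2:15271745-15271766, minus strand) had penalties of 3.5 and 3.0 with 1 target base unpaired. That of bHLH74 had 3.5 with none, and crosses an exon junction.

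As a group, the 127 genes lay further below Col-0 in the light than in the dark. The median level in 35S:miR396a was 21.7% of Col-0 in the light and 39.9% in the dark, and the fraction was smaller in the light for 100 genes and in the dark for 27. The median difference in log2(FPKM + 1), 35S:miR396a minus Col-0, was -1.86 in the light and -1.18 in the dark. Over all 3303 genes it was -0.13 in the light and -0.15 in the dark. The quartiles over the 3303 were -1.54 and 1.28 in the light, and -0.56 and 0.16 in the dark. At or under 0.5 times Col-0 were 1425 of the 3303 in the light and 556 in the dark. The genotype difference thus spread wider in the light over the 3303 genes, so the deeper light values cannot be read as a trait of the 127. The rule fixes the direction of the values of the 127, and they are given as a description.

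The authors' deposited tables listed 123 of the 127 as lower in 35S:miR396a in the dark, where 17.1% of the 3303 genes were so listed. In the light they listed 125, beside 43.1% of the 3303 genes. These counts follow from the rule and carry no information about the genes. PHOT2, PHS2, AT2G29290 and THIC were not listed in the dark, and NUDT21 and AT4G30650 were not listed in the light. The deposited folds of the other comparisons imply a dark log2 fold of -0.83 for PHS2, -0.95 for PHOT2, -0.99 for THIC and -0.996 for AT2G29290, and a light log2 fold of -0.996 for NUDT21 and -0.997 for AT4G30650. Of the 3303 genes, 89 had a mean in 35S:miR396a of at least 2 times that of Col-0 in both conditions.

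**Figure D1:**
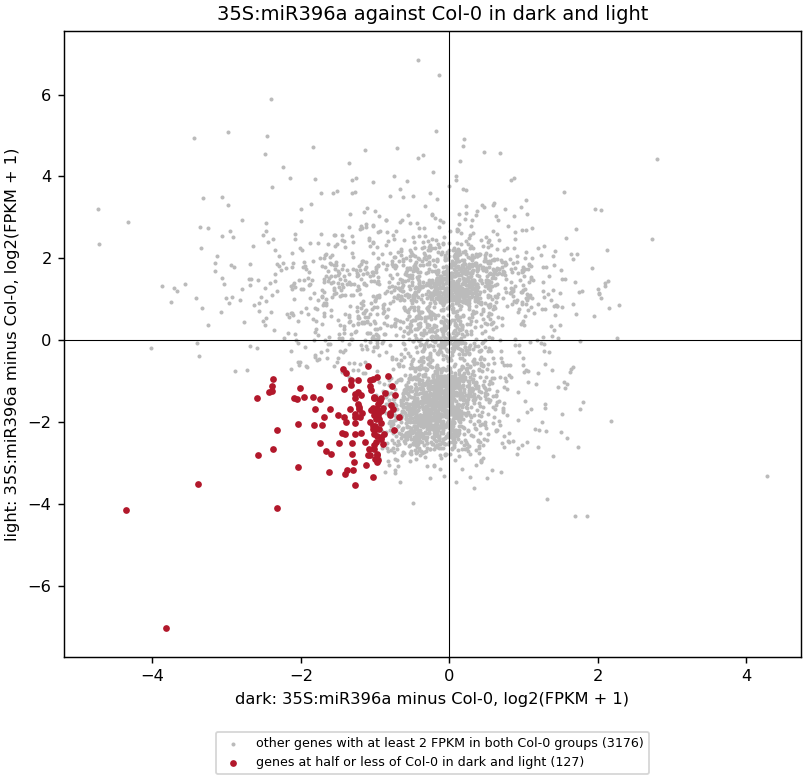
Difference of 35S:miR396a minus Col-0 in log2(FPKM + 1) in the dark (horizontal) and in the light (vertical), one point per gene. Red points are the 127 genes chosen for low values in both conditions, whose median was -1.86 for light and -1.18 for dark. Grey points are the other genes with at least 2 FPKM in both Col-0 groups, many of which lie low or high in the light and near 0 in the dark.

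Only 14 of the 127 were at or under 0.25 times Col-0 in both conditions, and 5 were at or under 0.1 in both. AT4G29200, annotated as a beta-galactosidase related protein, was at 0.033 FPKM in 35S:miR396a and 20.1 in Col-0 in the dark, and at 0.026 in 35S:miR396a and 17.1 in Col-0 in the light. Its transcript was thus near 0 in the 35S:miR396a groups whatever the light. It is the member with the smallest fraction in the dark, 0.164% of Col-0.

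FdC1 encodes a chloroplast ferredoxin-like iron-sulphur protein. It was at 1.82 FPKM in 35S:miR396a and 38.8 in Col-0 in the dark, and was listed at 0 in 35S:miR396a and at 129.8 in Col-0 in the light. FdC1 lies whole within AT4G14900 on the opposite strand of chromosome 4. The sources used here do not give the strand of the libraries, so reads of the pair cannot be told apart.

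MRD1, named for its response in a methionine-overaccumulating mutant, was at 1.01 FPKM in 35S:miR396a and 19.9 in Col-0 in the dark. In the light it was at 0.783 FPKM in 35S:miR396a and 19.5 in Col-0, so light left both genotypes near their dark means. The second gene annotated as a Mto 1 responding down protein among the 127, AT5G03090, was at 0.646 against 2.52 FPKM in the dark and 0.98 against 2.05 in the light, 35S:miR396a against Col-0. MRD1 shares 1446 bases of its span with HEI10 on the other strand.

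FBA5, a fructose-bisphosphate aldolase, combined a low fraction with a large difference between dark and light. It was at 0.07 FPKM in 35S:miR396a and 4.36 in Col-0 in the dark, and at 7.29 in 35S:miR396a and 141 in Col-0 in the light. Its light mean was thus above its dark mean in both genotypes, and the level reached in illuminated 35S:miR396a was 5.17% of that in illuminated Col-0. The first 109 bases of FBA5 overlap the end of its neighbour FBA7 on the same strand.

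AT2G14060, an S-adenosylmethionine-dependent methyltransferase, completes the 5 at or under 0.1. It was at 0.15 FPKM in 35S:miR396a and 2.26 in Col-0 in the dark, and at 0.113 in 35S:miR396a and 2.94 in Col-0 in the light. SOB5, named as a suppressor of the phytochrome B mutant phenotype and linked to cytokinin, was at 1.89 against 14.03 FPKM in the dark and 0.983 against 11.5 in the light, 35S:miR396a against Col-0. SPX1, a sensor protein of phosphate status, was at 6.76 FPKM in 35S:miR396a against 37.6 in Col-0 in the dark and 5.80 against 29.8 in the light. In each of these 3 genes the 2 means of 35S:miR396a lay below both Col-0 means.

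**Figure D2:**
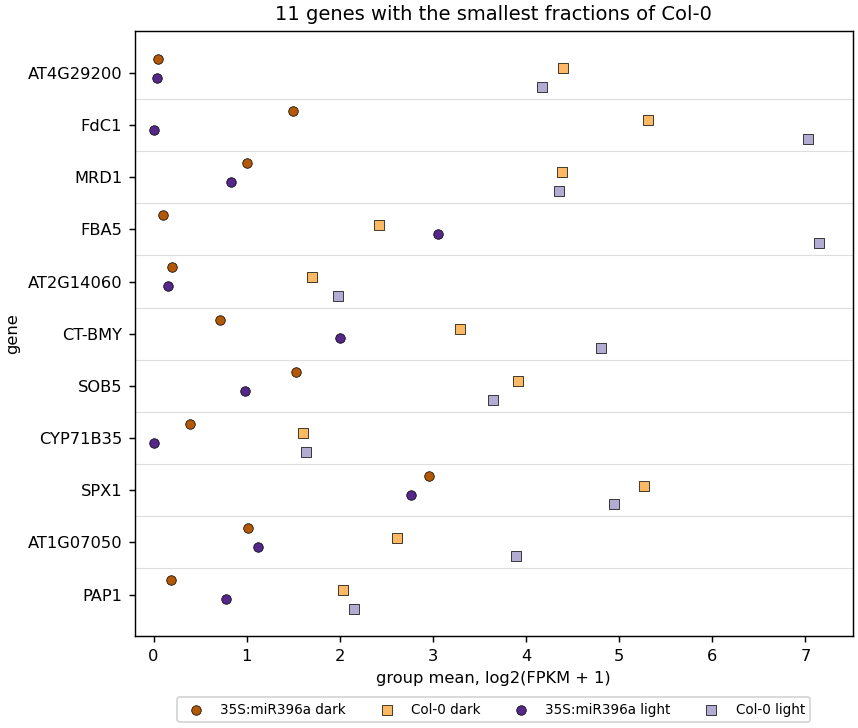
Group means in log2(FPKM + 1) of the 11 genes whose larger fraction of Col-0 (dark or light) was smallest, from the lowest at the top. Circles are 35S:miR396a and squares Col-0, each in the dark and in the light. AT4G29200, MRD1 and AT2G14060 show a gap of like size in dark and light, while FBA5 is higher in the light in both genotypes (7.29 FPKM in 35S:miR396a and 141 in Col-0).

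The chloroplast NDH complex supplied 11 of the 127 genes. This complex, related to respiratory complex I, sits in the thylakoid membrane, takes electrons from ferredoxin and passes them to plastoquinone in cyclic electron flow around photosystem I. It is built from subunits encoded in the chloroplast and in the nucleus, and a list of 17 nuclear subunits was made after the values were seen. The 11 are NdhL, NdhM, NdhN, NdhO, NdhS, NdhT, NdhU, PnsB3, PnsL2, PnsL3 and PnsL4. All 17 were listed lower in 35S:miR396a in the light, beside 43.1% of the 3303 genes, and these 11 were the ones listed lower in the dark, beside 17.1%. Since the list was drawn up from these values, its counts are no independent evidence of direction.

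NdhM, a subunit of the complex's stromal part, was at 9.26 FPKM in 35S:miR396a and 41.3 in Col-0 in the dark, and at 5.56 in 35S:miR396a and 55.0 in Col-0 in the light. PnsL3, a lumenal PsbQ-like subunit, was at 1.62 against 5.34 FPKM in the dark and 4.36 against 61.3 in the light, 35S:miR396a against Col-0. Its light mean in 35S:miR396a was therefore below its dark mean in Col-0. NdhS, which carries the docking site for ferredoxin, was at 30.1 FPKM in 35S:miR396a against 62.5 in Col-0 in the dark and 19.2 against 63.2 in the light. NdhT and NdhU, J-domain proteins anchored at the same part, were at 0.706 in 35S:miR396a against 2.40 in Col-0 and 2.91 against 6.82 FPKM in the dark.

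NdhO differed from the others in its light effect. Its mean was 45.7 FPKM in 35S:miR396a and 149.5 in Col-0 in the dark, and 11.6 in 35S:miR396a and 44.9 in Col-0 in the light. It was the only one of the 17 that the authors' deposited tables listed lower after light in Col-0 (log2 fold -1.65), and they also listed it lower after light in 35S:miR396a (-1.90).

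Over the 16 subunits with all 4 means, summed FPKM was 226.6 in 35S:miR396a and 520.9 in Col-0 in the dark, and 152.3 in 35S:miR396a and 1116 in Col-0 in the light. In the light the 35S:miR396a sum was 13.7% of Col-0, and in the dark 43.5%. After light 2 of the 17 subunits were listed higher in 35S:miR396a, PnsL3 and NdhU (28.9% of the 3303 genes were so listed), and 12 in Col-0 (28.3%). The 5 subunits with 4 means outside the 127 (PnsB1, PnsB2, PnsB4, PnsB5 and PnsL1) had a 35S:miR396a mean of 53.3% to 79.7% of Col-0 in the dark and of 9.89% to 15.7% in the light. They were left out for their dark values. Among the 11, NdhL, NdhN, NdhS, PnsB3 and PnsL2 overlap genes on the opposite strand by over 200 bases.

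**Figure D3:**
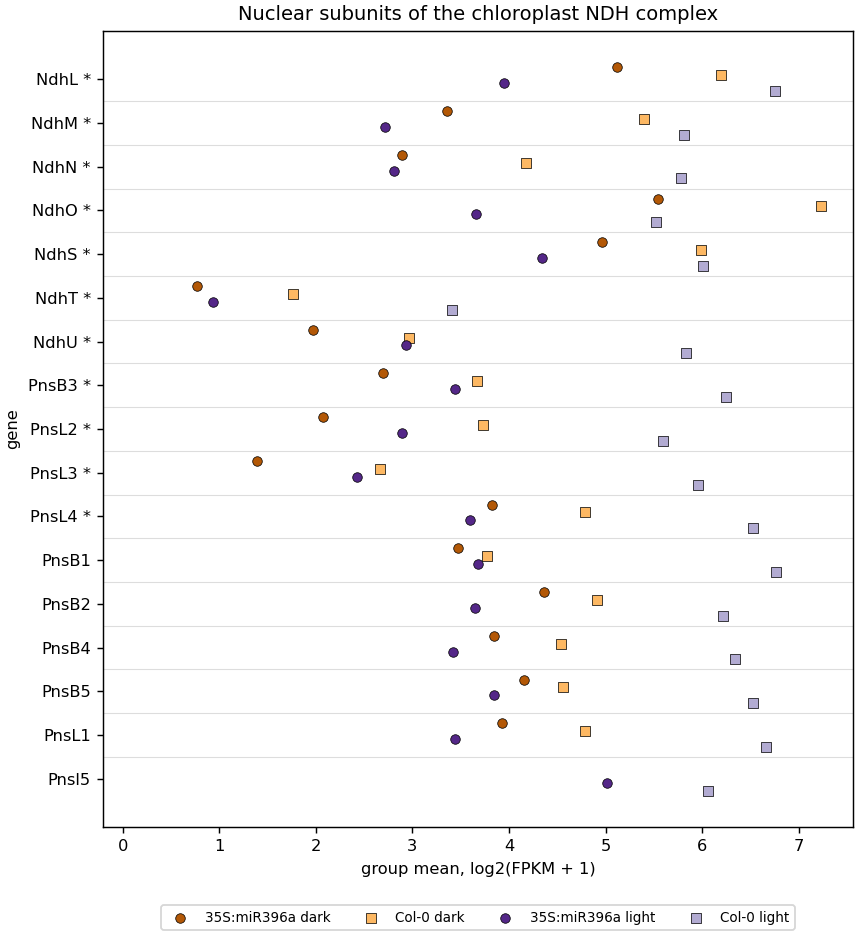
Group means in log2(FPKM + 1) of the 17 nuclear NDH subunits, one row per gene, with circles for 35S:miR396a and squares for Col-0. An asterisk marks the 11 that were at most 0.5 times Col-0 in both conditions, and PnsL5 (Pnsl5) has means for the light groups only. Summed over the 16 with 4 means, illuminated 35S:miR396a reached 13.7% of illuminated Col-0.

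Genes for assembling and expressing the complex were represented by 3 of 14 on a list also made after the values were seen. CRR7, an assembly factor, was at 4.51 FPKM in 35S:miR396a and 10.2 in Col-0 in the dark, and at 3.98 in 35S:miR396a and 30.2 in Col-0 in the light. Cpn60beta4, a chaperonin subunit needed to fold the NdhH protein, was at 2.37 against 5.79 FPKM in the dark and 1.62 against 10.8 in the light, 35S:miR396a against Col-0. SIG4, the sigma factor that directs the plastid polymerase to ndhF, was at 6.34 FPKM in 35S:miR396a against 15.2 in Col-0 in the dark and 3.08 against 21.9 in the light. In the light 13 of the 14 were listed lower in 35S:miR396a, beside 43.1% of the 3303 genes, and in the dark 4 of the 14 were, beside 17.1%.

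Carbon fixation supplied some of the most abundant of the 127. PRK, phosphoribulokinase, makes the sugar phosphate to which Rubisco adds carbon dioxide. It was at 102.7 FPKM in 35S:miR396a and 252.7 in Col-0 in the dark, and at 45.7 in 35S:miR396a and 421 in Col-0 in the light. FBA1, a plastid aldolase, was at 46.8 against 95.1 FPKM in the dark and 125.7 against 742 in the light, 35S:miR396a against Col-0. Illuminated 35S:miR396a thus exceeded dark Col-0 for FBA1 and stayed below it for PRK.

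HCEF1, the plastid fructose-1,6-bisphosphatase whose mutant has high cyclic electron flow, was at 53.2 FPKM in 35S:miR396a and 109.3 in Col-0 in the dark, and at 37.0 in 35S:miR396a and 383 in Col-0 in the light. CP12-2, a small protein that ties PRK to glyceraldehyde-phosphate dehydrogenase in an inactive complex, was at 10.9 FPKM in 35S:miR396a against 35.5 in Col-0 in the dark and 37.1 against 356 in the light. Of a list of 17 Calvin cycle genes and CP12 proteins made after the values were seen, these 4 were members. The other 9 with 4 means lay at 61.8% to 130.4% of Col-0 in the dark and at 11.8% to 39.8% in the light. Of the genes without 4 means, 2 were listed higher in 35S:miR396a in the light, PDE345 (224.9 FPKM in 35S:miR396a and 105.8 in Col-0) and CP12-3 (12.2 in 35S:miR396a and 3.81 in Col-0).

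The glycine decarboxylase complex, which releases carbon dioxide in photorespiration, gave 2 of its 6 genes. Its P-protein GLDP1 was at 39.7 FPKM in 35S:miR396a and 97.2 in Col-0 in the dark, and at 150.9 in 35S:miR396a and 618 in Col-0 in the light. Its H-protein GDCH was at 64.8 against 137.9 FPKM in the dark and 39.5 against 254 in the light, 35S:miR396a against Col-0. GLDP1 was listed higher after light in both genotypes, and GDCH was listed in neither. Outside the 127, AT2G35120 of the same list was listed higher in 35S:miR396a in the light (110.1 FPKM in 35S:miR396a and 48.6 in Col-0).

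Starch breakdown and sucrose synthesis gave 4 of 15 listed genes. The chloroplast beta-amylase CT-BMY (BAM3), which releases maltose from starch, was at 0.64 FPKM in 35S:miR396a and 8.79 in Col-0 in the dark, and at 3.01 in 35S:miR396a and 27 in Col-0 in the light. The sucrose-phosphate synthase ATSPS4F was at 3.55 FPKM in 35S:miR396a against 11.8 in Col-0 in the dark and 1.26 against 11.9 in the light. The cytosolic glucan phosphorylase PHS2 was at 7.77 FPKM in 35S:miR396a against 16.2 in Col-0 in the dark and 6.58 against 37.1 in the light. SEX4, a phosphatase that removes phosphate from starch, was at 4.53 FPKM in 35S:miR396a against 9.86 in Col-0 in the dark and 2.33 against 5.23 in the light. Outside the 127, BAM1 of the same list was listed lower in 35S:miR396a in the dark (27.5 FPKM in 35S:miR396a and 83.4 in Col-0) and higher in the light (87.6 in 35S:miR396a and 32.1 in Col-0). CT-BMY was listed higher after light in both genotypes, whereas ATSPS4F was listed lower after light in 35S:miR396a and in neither direction in Col-0.

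Genes of chlorophyll synthesis and light perception numbered 5 (this grouping and the next ones were made after the values were seen). FLU, which holds back the first committed step of chlorophyll synthesis in the dark, was at 24.8 FPKM in 35S:miR396a and 85.2 in Col-0 in the dark, and at 17.0 in 35S:miR396a and 100.8 in Col-0 in the light. It was the only one of 5 candidate miR396 targets outside the GRF family with values in all 4 groups. Of the other candidates, RAP2.12 was listed lower in the dark (51.7 FPKM in 35S:miR396a and 139.5 in Col-0). RD21B was listed lower in the light (74.3 in 35S:miR396a and 183.5 in Col-0). ATK2 and AT2G40760 were listed in neither genotype comparison. Over the 3303 genes 17.1% were listed lower in the dark and 43.1% in the light. LIL3:2, a protein that anchors enzymes of chlorophyll synthesis, had the highest Col-0 level of the 127 (mean of dark and light 442 FPKM), with 348 FPKM in 35S:miR396a against 729 in Col-0 in the dark and 71.1 against 155.6 in the light.

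POR C (PORC), the protochlorophyllide oxidoreductase of light-grown plants, was at 8.54 FPKM in 35S:miR396a and 19.4 in Col-0 in the dark, and at 12.1 in 35S:miR396a and 90.4 in Col-0 in the light. PHOT2, a blue-light receptor for phototropism and chloroplast movement, was at 9.96 against 23.8 FPKM in the dark and 15.0 against 53.9 in the light, 35S:miR396a against Col-0. SPA3, a partner of the ubiquitin ligase COP1, was at 4.49 FPKM in 35S:miR396a against 12.8 in Col-0 in the dark and 8.67 against 19.7 in the light. OEP6, a chloroplast outer-envelope protein, was among the most abundant, at 105.1 FPKM in 35S:miR396a against 274 in Col-0 in the dark and 43.6 against 401 in the light.

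Among 10 transcription factors the largest gap in the dark was that of PAP1 (MYB75), an activator of anthocyanin synthesis. It was at 0.14 FPKM in 35S:miR396a and 3.08 in Col-0 in the dark, and at 0.71 in 35S:miR396a and 3.46 in Col-0 in the light. MYB111, an activator of flavonol synthesis, was at 1.43 FPKM in 35S:miR396a against 2.87 in Col-0 in the dark and 0.163 against 3.24 in the light. The 2 regulators thus differed in where the gap was widest, PAP1 in the dark and MYB111 in the light. AT1G07050, a CCT motif protein, was at 1.03 FPKM in 35S:miR396a against 5.13 in Col-0 in the dark and 1.17 against 13.8 in the light. BME3, a GATA factor of seed germination, was at 18.7 FPKM in 35S:miR396a against 51.5 in Col-0 in the dark and 10.6 against 25.5 in the light. The others were MYB16, ATH1, HB21, SNZ, LBD21 and AIF1. PLIM2b, an actin-bundling LIM protein that the annotation calls a GATA type factor, was at 4.55 FPKM in 35S:miR396a against 32.4 in Col-0 in the dark and 3.73 against 11.6 in the light.

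Genes of growth, hormones and the cell wall numbered 11. ATGA2OX1, which inactivates gibberellins, was at 0.126 FPKM in 35S:miR396a and 3.39 in Col-0 in the dark, and at 0.926 in 35S:miR396a and 4.07 in Col-0 in the light. EXO, a cell-wall protein that promotes growth downstream of brassinosteroids, was at 130.3 against 346 FPKM in the dark and 33.7 against 168.5 in the light, 35S:miR396a against Col-0. PHI-1 of the same family was at 13.1 FPKM in 35S:miR396a against 74.8 in Col-0 in the dark and 17.3 against 42.9 in the light. EXO therefore had its smaller fraction of Col-0 in the light and PHI-1 in the dark.

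XTH9, a xyloglucan-remodelling enzyme, was at 36.3 FPKM in 35S:miR396a and 73.2 in Col-0 in the dark, and at 28.8 in 35S:miR396a and 111.7 in Col-0 in the light. AT5G20740, an inhibitor of pectin methylesterase or invertase, was at 8.98 FPKM in 35S:miR396a against 18.7 in Col-0 in the dark and 8.32 against 28.9 in the light. STOMAGEN, a secreted peptide that raises stomatal density, was at 6.74 FPKM in 35S:miR396a against 17.1 in Col-0 in the dark and 3.32 against 11.8 in the light. The lists for auxin, cell-wall expansion, brassinosteroid growth genes, jasmonate and defence, and rapid touch and stress had no member among the 127. Among the 3303 genes these lists had only 12, 11, 7, 8 and 10 genes in that order, so this absence carries little information. All 15 touch and stress genes were listed lower in 35S:miR396a in the dark, beside 17.1% of the 3303 genes. In the light 11 of them were listed higher, beside 36.1% of the 3303, and 0 lower, beside 43.1%. Of 19 jasmonate and defence genes, 13 were listed lower (17.1%) and 1 higher (5.27%) in 35S:miR396a in the dark. In the light 12 of the 19 were listed higher (36.1%) and 2 lower (43.1%).

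Enzymes of secondary metabolism and detoxification numbered 8. CYP71B35, a cytochrome P450, was at 0.313 FPKM in 35S:miR396a and 2.04 in Col-0 in the dark, and was listed at 0 in 35S:miR396a and at 2.10 in Col-0 in the light. CYP71B20 was at 7.08 FPKM in 35S:miR396a against 18.5 in Col-0 in the dark and 5.24 against 20.6 in the light, and shares 19.5% of its 50-base stretches with CYP71B19, so reads could be split between them. CYP76C1, which oxidises linalool, was at 7.39 FPKM in 35S:miR396a against 16.1 in Col-0 in the dark and 5.48 against 28.2 in the light. Glycosyltransferases were HYR1, at 5.94 FPKM in 35S:miR396a against 12.1 in Col-0 in the dark and 10.05 against 43.6 in the light, AT2G30150 and AT2G31790.

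Further genes stood out by level within their annotated class. TLL1, a triacylglycerol lipase-like protein, was at 12.8 FPKM in 35S:miR396a and 44.2 in Col-0 in the dark, and at 35.4 in 35S:miR396a and 150.6 in Col-0 in the light. The lectin AT1G52100 was at 42.0 FPKM in 35S:miR396a against 92.8 in Col-0 in the dark and 20.5 against 175 in the light, and the lectin AT1G52000 was at 1.92 against 11.5 and 1.86 against 6.63. LrgB, a plastid envelope protein that exports glycolate, was at 28.6 FPKM in 35S:miR396a against 72.0 in Col-0 in the dark and 23.2 against 137.7 in the light. The cysteine protease CEP3 was at 3.15 FPKM in 35S:miR396a against 6.6 in Col-0 in the dark and 31.9 against 78.7 in the light. APD3, a RING protein, was at 3.56 FPKM in 35S:miR396a against 22.9 in Col-0 in the dark and 18.2 against 44.4 in the light, and shares 59.1% of its 50-base stretches with APD4. MSRB6, a methionine sulfoxide reductase, was at 0.453 FPKM in 35S:miR396a against 3.87 in Col-0 in the dark and 64.9 against 177.6 in the light.

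The listings after light were counted in each genotype. In Col-0, 47 were listed higher after light (37.0%, beside 28.3% of the 3303 genes) and 12 lower (9.45%, beside 34%). In 35S:miR396a, 23 were listed higher (18.1%, beside 28.9%) and 30 lower (23.6%, beside 30.5%). The median of light minus dark in log2(FPKM + 1) was -0.17 in 35S:miR396a and 0.61 in Col-0, and over all 3303 genes -0.11 in 35S:miR396a and -0.13 in Col-0. The Col-0 and 35S:miR396a means behind these values are the ones on which the genes were chosen, so the shares describe the 127 and no test of them was made.

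By gene, light listings had the same direction in Col-0 and 35S:miR396a for 25 genes, of which 16 were higher and 9 lower. There were 30 listed higher in Col-0 and not listed in 35S:miR396a, and 20 listed lower in 35S:miR396a and not listed in Col-0. Another 7 were listed higher in 35S:miR396a only, 3 lower in Col-0 only, and 41 in neither. FdC1 alone was listed in opposite directions, lower in 35S:miR396a, where its light mean is listed at 0, and higher in Col-0 (authors' deposited table, log2 fold 1.74). Being listed in one genotype only is not a test of a difference between them.

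The difference of the light effect, 35S:miR396a minus Col-0 in log2(FPKM + 1), had a median of -0.67 and was below 0 for 101 of the 127 genes. Over the 3303 genes its median was -0.05, with quartiles of -1.36 and 1.45, and 1679 were below 0. It equals the genotype difference in the light minus that in the dark, the values on which the 127 were chosen. It is therefore given as a description of the 127. It was lowest for FdC1 (-3.22), HCEF1 (-2.31), PnsL3 (-2.26) and ZKT (-1.99), a thylakoid protein with PDZ and TPR domains that was at 6.91 FPKM in 35S:miR396a and 14.6 in Col-0 in the dark and at 11.2 in 35S:miR396a and 93.8 in Col-0 in the light. It was highest for NUDT21 (1.43), AT4G22490 (1.27), PLIM2b (1.18) and PHI-1 (1.16).

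In these last 4 genes the gap between genotypes was wider in the dark. NUDT21, a nudix hydrolase, was at 14.2 FPKM in 35S:miR396a and 77.6 in Col-0 in the dark, and at 9.33 in 35S:miR396a and 18.9 in Col-0 in the light. AT4G22490, a lipid-transfer-like protein, was at 24.0 FPKM in 35S:miR396a against 129.5 in Col-0 in the dark and 6.39 against 15.0 in the light.

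**Figure D4:**
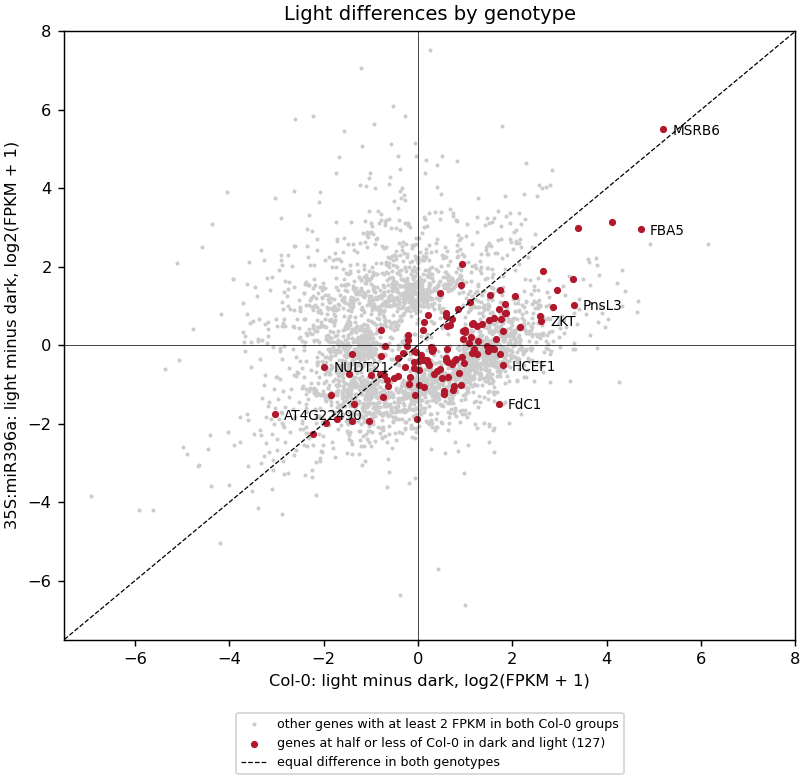
Light minus dark in log2(FPKM + 1) in Col-0 (horizontal) and in 35S:miR396a (vertical), one point per gene, with the 127 genes in red and the other genes with at least 2 FPKM in both Col-0 groups in grey. The dashed line marks equal differences. Of the 127, 101 lie below it (1679 of all 3303 genes do), FdC1 farthest (-3.22), and NUDT21 lies farthest above it (1.43).

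At the edge of the rule, AT5G02940, a POLLUX-like ion channel protein, was at 0.5 times Col-0 in the dark (2.78 FPKM in 35S:miR396a and 5.57 in Col-0). AT5G62140 and AT1G22630 lay just inside with larger fractions of 0.4996 and 0.4990. Just outside were AT1G64680, a beta-carotene isomerase (0.5003), the ferredoxin FD1 (0.5008) and the AP2 factor DREB26 (0.5013). Among genes outside the 127, those with the profile closest to the median of the 127 over the 4 groups were the expansin EXPA5 (13.2 FPKM in 35S:miR396a and 25.6 in Col-0 in the dark, 8.43 in 35S:miR396a and 43.2 in Col-0 in the light), AT1G63360, AT4G01580, AT5G48790 and UMAMIT13. Likeness was the sum of absolute log2(FPKM + 1) differences over 3 group means centred on dark Col-0, and was 0.529 for EXPA5 and 0.729 for UMAMIT13.

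The 124 placed genes were spread over all chromosomes, with 28, 22, 27, 25 and 22 on chromosomes 1 to 5. Only AT2G29310 and AT2G29320, members of a tandem family of short-chain dehydrogenases, had no gene between them. AT2G29310 was at 2.84 FPKM in 35S:miR396a and 8.26 in Col-0 in the dark and at 5.78 in 35S:miR396a and 32.1 in Col-0 in the light. AT2G29320 was at 1.03 FPKM in 35S:miR396a against 2.37 in Col-0 in the dark and 1.67 against 5.71 in the light. Another gene of that family, AT2G29290, lies within 10 kb of both, and 21.1% of its 50-base stretches are shared with the pseudogene AT2G29280.

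Promoters, taken from 250 bases before to 50 after the annotated start, were searched on both strands for short motifs. The G-box CACGTG, bound by light-signalling factors, was in 13 of 124 promoters (10.5%, beside 11.4% of the 3268 and 7.68% of all 27443 coding genes). The GRF-type motif TGTCAG was in 7.26% (7.71% and 6.57%), the W-box TTGACC or TTGACT in 28.2% (33.5% and 32.4%) and the DRE core ACCGAC in 3.23% (7.01% and 5.70%). The evening element AAAATATCT, named for genes that peak at dusk, was in 9 promoters (7.26%, beside 3.79% and 2.82%). Of motifs added after the data were seen, GATAAG was in 25% (18.6% and 14.7%), TATAAA in 48.4% (52.2% and 52.2%) and the telo box AAACCCTAA in 2.42% (1.71% and 3.604%). A match describes letters in a window and not a bound site.

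The 250 bases before the start are shown for HCEF1, which has a G-box 22 bases and W-boxes 208 and 106 bases before it, and for OEP6, which has an evening element 69 and a W-box 114 bases before it, with the motifs in capitals. They are at chr3:20016587-20016836 on the plus strand and chr3:23334035-23334284 on the minus strand (TAIR10.1), and were chosen after the values were seen from abundant genes whose window overlaps no annotated gene.
HCEF1: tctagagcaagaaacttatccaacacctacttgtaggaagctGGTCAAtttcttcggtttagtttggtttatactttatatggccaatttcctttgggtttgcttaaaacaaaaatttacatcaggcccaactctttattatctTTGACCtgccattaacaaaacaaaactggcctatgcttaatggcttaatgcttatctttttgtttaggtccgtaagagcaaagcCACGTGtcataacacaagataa
OEP6: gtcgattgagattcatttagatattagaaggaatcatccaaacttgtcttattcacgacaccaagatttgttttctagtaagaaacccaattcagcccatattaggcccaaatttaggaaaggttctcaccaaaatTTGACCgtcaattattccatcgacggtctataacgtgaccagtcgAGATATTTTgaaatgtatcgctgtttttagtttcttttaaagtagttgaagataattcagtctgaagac

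Strand is not given for the libraries, and 45 of the 124 genes overlap another gene, 39 of them one on the opposite strand, so some of these means may hold reads of 2 genes. The 3 transcripts without an identifier in the reference annotation were named by the sequencing centre. BGI_novel_G000115 was at 1.45 FPKM in 35S:miR396a and 4.08 in Col-0 in the dark, and at 2.08 in 35S:miR396a and 9.11 in Col-0 in the light.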

How the data were processed

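RNA of 12 libraries was sequenced on BGISEQ-500, per the labels' protocols, and mapping used HISAT and Bowtie2 with the TAIR10 build, per the submitters' processing notes, which give no versions. The deposited tables, 6 in all, hold one comparison of 2 groups each. Per the file headers they give, for both groups, the FPKM averaged by the authors, then a log2 fold and a p-value and q-value of DEGseq, while the design text names NOISeq. Only genes beyond 2-fold with a q-value under 0.001 are in the deposited tables, so a gene listed nowhere is not analysed here. Group means were read from whichever table held the gene and differed between tables for 0 genes. Columns that belong to no sample or group numbered 0.

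From these means, ratios and differences of log2(FPKM + 1) were computed with pandas 2.3.3 and NumPy 2.4.6. Where a member was not listed in a genotype table, its log2 fold was implied from other deposited folds, a sum checked over 5 routes on 483 to 973 genes each, where it closed to within 4.6e-09. No test was made, since there are no replicate values. Positions, transcripts and promoters came from TAIR10.1 (RefSeq), and of the 127 genes 124 matched by identifier. The longest transcript per gene was searched for sites, with the search tested on planted and random sequences.

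The genes and lists were chosen with earlier results of these data known. Many genes named with values follow a rule: the 12 smallest fractions, the 10 highest Col-0 means, list members, the rule's edge, the 4 largest and 4 smallest light-effect differences, neighbours, and the 2 most abundant per annotation keyword class. Some genes of the keyword classes are left out. Others named with values, such as MYB111, ATGA2OX1, STOMAGEN and SPA3, lie outside this rule and were picked after the values were seen. NDH, Calvin cycle, starch and similar groups were named after their values were seen. The keyword classes misplace some genes, such as phosphoribulokinase among kinases. A gene that the rule names is not reported here.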

Additional observations from a re-analysis of the deposited data

How the results depend on the processing

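No paired analysis was possible because the tables hold group means, and for the same reason no replicate could be left out. The number of genes was 156 at a minimum of 1 FPKM, 99 at 5 FPKM and 124 by the deposited log2 folds (121 of them among the 127), and 14 at a ratio of at most 0.25. With a pseudocount of 0.1 the median log2 differences were -1.31 (dark) and -2.14 (light) for 35S:miR396a minus Col-0, -0.23 in 35S:miR396a and 0.65 in Col-0 for light minus dark, and -0.74 for the difference of the light effect. With the 99 genes at 5 FPKM or more they were -1.19, -2.06, -0.23, 0.62 and -0.81 in that order. At a log2 fold of 2 or more in size, the authors' tables listed 8 of the 127 higher and 8 lower after light in 35S:miR396a, and 14 higher and 5 lower in Col-0. Among the genes at 5 FPKM or more the counts were 16 and 20 in 35S:miR396a and 35 and 8 in Col-0. Stretches complementary to miR396 numbered 0 at a penalty of 3 and without a bulge, and 1 at a penalty of 5. With start sites within 10 kb, 5 genes had a neighbour among the 127. Without values of single libraries, the data do not show which differences exceed replicate spread.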
